A study of Mus musculus with 10 samples.

Results

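The VEGF ligands, receptors and neuropilins were followed in cultured fetal mouse testes as 9 of the 24470 gene entries of the count table. Their symbols were listed as members of this family, with earlier results of these data known. The ligands are Vegfa, Vegfb, Vegfc and Pgf, the receptors are Kdr, Flt1 and Flt4, and the neuropilins are Nrp1 and Nrp2. Gonads with their mesonephros came from C57BL/6 embryos at E12.5. From each of 5 embryos, named M1 to M5, 1 testis was cultured for 48 h with 75 µM CP 316819, an inhibitor of glycogen phosphorylase (GPI), and its partner with the vehicle DMSO. The mesonephros was cut away after culture, and RNA of each testis was sequenced in bulk, which gave 5 vehicle and 5 GPI-treated libraries paired by embryo. The comparison asks how GPI changed transcript levels between the gonads of an embryo.

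VEGF ligands are secreted proteins that bind receptor tyrosine kinases on endothelial cells and drive vessel growth. VEGF-A signals mainly through the receptor made from Kdr, while the receptor made from Flt1 binds VEGF-A, VEGF-B and placental growth factor (from Pgf) and also exists as a soluble form that holds ligand back. VEGF-C signals through the receptor made from Flt4, a regulator of lymphatic growth that is also found on growing blood vessels, and neuropilins are co-receptors for VEGF and for secreted semaphorins. In the fetal testis, endothelial cells move in from the mesonephros and build an artery and branches between the forming cords, and VEGF-A is known to act in this patterning.

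All 9 genes had an entry in the RefSeq promoter table of build GRCm38.p6. The 250 bases upstream of the start site are shown for Vegfa and for the receptors, since Kdr, Flt1 and Flt4 fell together with GPI and Vegfa encodes a ligand of the receptors made from Kdr and Flt1. Vegfa has the window chr17:46032378-46032627 on the minus strand, and Flt4 has chr11:49609429-49609678 on the plus strand. Kdr and Flt1 are both on chromosome 5 and on the minus strand, with the windows chr5:75978456-75978705 and chr5:147726012-147726261. Each window is written 5' to 3' on the strand of its gene, and capitals mark GGAA or its reverse complement TTCC, the core of the sites that ETS factors bind.
Vegfa: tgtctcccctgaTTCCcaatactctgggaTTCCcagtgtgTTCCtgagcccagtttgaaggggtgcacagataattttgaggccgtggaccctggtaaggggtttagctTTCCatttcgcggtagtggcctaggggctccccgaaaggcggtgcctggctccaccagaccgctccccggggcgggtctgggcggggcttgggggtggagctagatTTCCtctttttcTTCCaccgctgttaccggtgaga
Kdr: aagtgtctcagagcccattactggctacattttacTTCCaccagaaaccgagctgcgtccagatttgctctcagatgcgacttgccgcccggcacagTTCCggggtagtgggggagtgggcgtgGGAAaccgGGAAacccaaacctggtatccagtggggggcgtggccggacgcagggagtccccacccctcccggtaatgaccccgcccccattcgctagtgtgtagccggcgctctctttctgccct
Flt1: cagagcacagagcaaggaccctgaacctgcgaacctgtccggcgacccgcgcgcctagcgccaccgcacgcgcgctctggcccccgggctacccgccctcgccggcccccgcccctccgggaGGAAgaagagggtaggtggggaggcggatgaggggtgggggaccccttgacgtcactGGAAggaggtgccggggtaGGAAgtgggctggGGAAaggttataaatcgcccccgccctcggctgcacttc
Flt4: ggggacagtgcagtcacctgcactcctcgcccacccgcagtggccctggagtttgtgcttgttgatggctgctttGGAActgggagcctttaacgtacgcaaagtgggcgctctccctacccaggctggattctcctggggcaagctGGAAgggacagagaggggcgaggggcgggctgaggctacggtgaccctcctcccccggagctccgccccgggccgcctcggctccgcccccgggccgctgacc
Searched on both strands, the core occurred 6 times in the Vegfa window, 4 times each in the Kdr and Flt1 windows and 2 times in the Flt4 window. In the windows not shown it occurred 4 times for Nrp1, once each for Vegfb, Vegfc and Nrp2, and was not found for Pgf. Of 32851 promoter windows of this length, 93.4% held at least 1 core, 76.8% held at least 2, 33.4% held at least 4 and 8.69% held at least 6. The Flt1 window also held TGACGTCA, the cAMP response element, with its first base 81 bases upstream of the start site, and TATAAA 31 bases upstream. TGACGTCA was found in 1.55% of all windows and TATAAA in 12.4%. ACGTG and GCGTG, the core forms bound by hypoxia-inducible factors (HIF), were searched as well. Neither was found in the Vegfa or Flt4 window. GCGTG occurred 2 times in the Kdr window, 131 and 89 bases upstream, and once in the Flt1 window, 184 bases upstream. In the windows not shown it occurred 2 times each for Vegfb and Nrp2, once each for Pgf and Nrp1, and was not found for Vegfc. GCGTG was present in 28.2% of all windows and at least 2 times in 8.63%, and ACGTG was present in 16.6%. These matches are descriptions of the letters in a short window, they did not overlap each other, and binding was not measured.

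Depth ran from 10203679 to 15635322 counts per library. Vehicle libraries of M1 to M5 held 11114376, 10203679, 10835341, 12220168 and 15590223 counts. Those of the GPI-treated testes held 11025409, 15635322, 13639929, 11691690 and 11468668. Values below are counts normalized by library size and TMM scaling, unless raw counts are named. The label of cultured testis was checked against marker genes: the Sertoli cell gene Sox9 had a mean of 1231 ± 213 normalized counts with vehicle (SD, n = 5) and the steroidogenic gene Hsd3b1 had 1718 ± 892. Insl3, a Leydig cell hormone, had at most 7.37 normalized counts in a library and was listed at 0 in 4 of 10 libraries, and Amh, a Sertoli cell hormone, lay between 47.0 and 209.5. The GPI-treated testis of M1 stood apart from the other GPI-treated testes in Vegfa and in genes known as targets of HIF, so these results are given with and without M1.

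All 9 VEGF genes passed the filter on low counts. With GPI, 8 of the 9 fell and 1, Vegfb, rose at an FDR of 0.05 (quasi-likelihood test of edgeR, Benjamini-Hochberg adjusted over 13941 genes). Across all tested genes, 22.9% were called, 11.9% lower and 11.1% higher, and the median log2 fold change was 0.02, against -1.84 for the 9 genes. In 7 of the 9, every GPI-treated testis lay below every vehicle testis, against 9.04% of all tested genes. None of the 9 had every GPI-treated testis above every vehicle testis, which held for 7.07% of tested genes. The receptors fell most, with a median log2 fold change of -3.22, and the ligands had -1.43 and the neuropilins -0.94. In bulk RNA, fewer cells of a type and less RNA per cell cannot be told apart, and counts per gene do not separate isoforms.

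**Figure D1:**
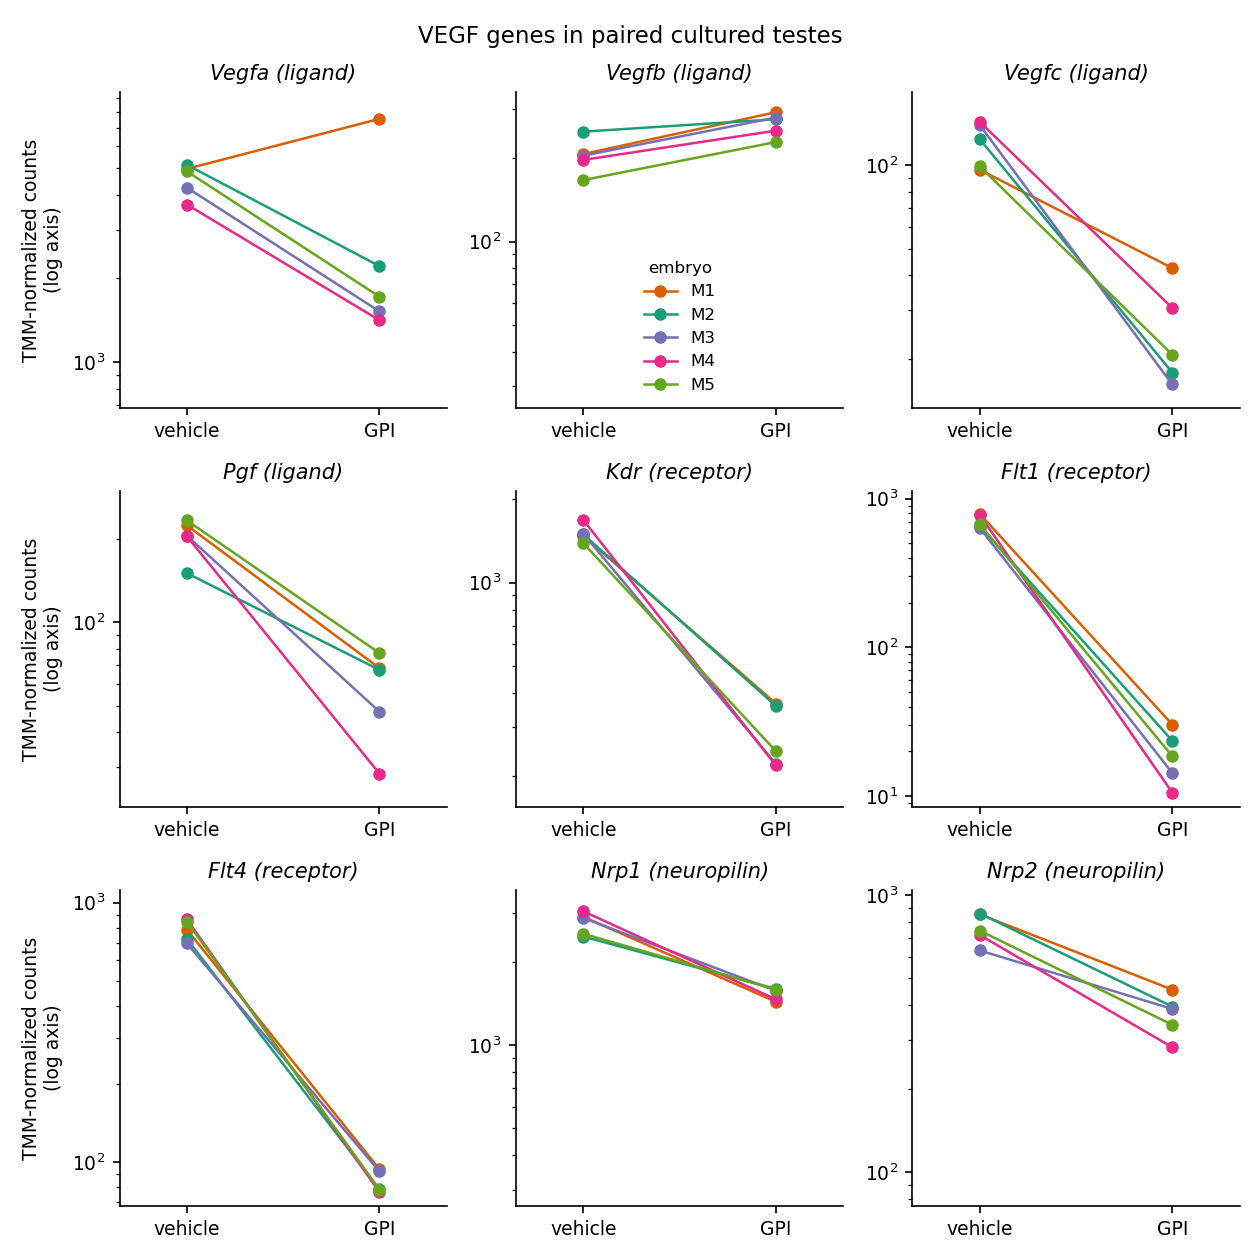
TMM-normalized counts of the 9 VEGF genes on log axes, with a line from the vehicle testis to the GPI-treated testis of each embryo M1 to M5. Every line of Kdr, Flt1, Flt4, Vegfc, Pgf, Nrp1 and Nrp2 falls, every line of Vegfb rises, and Vegfa falls in 4 of 5 embryos and rises in M1 from 4975 to 7539.

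Vegfa (Entrez 22339), the central ligand of vessel growth, had 4975, 5144, 4256, 3698 and 4873 normalized counts in the vehicle testes of M1 to M5, and 7539, 2217, 1521, 1413 and 1719 in the GPI-treated testes. The GPI-treated testis of M1 was the highest of all 10 libraries, and the other GPI-treated testes lay below every vehicle testis, so that the groups overlapped through M1 alone. The log2 fold change was -1.02 ± 0.24 (SE, 95% CI -1.53 to -0.51), with adjusted p = 0.00649 by the quasi-likelihood test of edgeR with Benjamini-Hochberg adjustment. Vegfa was lower in 4 of 5 embryos. The log2 ratio within an embryo was 0.60 in M1 and -1.21, -1.48, -1.39 and -1.50 in M2 to M5. Without M1 the log2 fold change was -1.41, with adjusted p = 2.46e-08 in the same edgeR test with Benjamini-Hochberg adjustment. Without the pairing by embryo it was -0.67 and was not called, with adjusted p = 0.216 by the same edgeR test and adjustment.

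Vegfc (Entrez 22341), the ligand of the receptor made from Flt4, had 96.3, 124, 139.6, 143 and 99.0 normalized counts with vehicle and 42.5, 17.8, 16.2, 30.5 and 20.7 with GPI. Every GPI-treated testis lay below every vehicle testis, and the mean fell to 21.2% of vehicle. Its log2 fold change was -2.28 ± 0.27 (SE), with adjusted p = 3.46e-05 by the quasi-likelihood test of edgeR with Benjamini-Hochberg adjustment. Pgf (Entrez 18654), which encodes placental growth factor, had 224, 150.4, 206, 204 and 233 normalized counts with vehicle and 68.3, 67.3, 47.5, 28.4 and 77.4 with GPI. These groups did not overlap either, and Pgf was lower in 5 of 5 embryos. The log2 fold change of Pgf was -1.84 ± 0.21 (SE), with adjusted p = 2.74e-05 by the same edgeR test with Benjamini-Hochberg adjustment.

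Vegfb (Entrez 22340), a ligand of the receptor made from Flt1, was the 1 VEGF gene called higher. It had 207, 249, 204, 197 and 167 normalized counts with vehicle and 293, 277, 281, 252 and 229 with GPI. Vegfb was higher in 5 of 5 embryos, by log2 ratios of 0.15 to 0.50, although the vehicle testis of M2 lay above the GPI-treated testis of M5. The log2 fold change was 0.38 ± 0.11 (SE), with adjusted p = 0.028 by the quasi-likelihood test of edgeR with Benjamini-Hochberg adjustment. The call was lost with DESeq2 (0.37, Benjamini-Hochberg adjusted p = 0.061). In the edgeR test with Benjamini-Hochberg adjustment it was also lost with total-count scaling (0.33, adjusted p = 0.0593). Leaving out M1, M3, M4 or M5 ended the call too, with log2 fold changes of 0.33, 0.35, 0.39 and 0.36. Vegfd, a further ligand of the receptor made from Flt4, was outside the 9 genes and was not called: it had 34.3, 45.3, 90.5, 55.8 and 90.7 normalized counts with vehicle and 45.9, 41.4, 64.7, 44.2 and 56.7 with GPI, and the 95% confidence interval of its log2 fold change ran from -0.77 to 0.24.

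All 3 receptor genes fell in 5 of 5 embryos, and no receptor had overlapping groups. Flt1 (Entrez 14254) had 789.5, 655, 634, 776 and 672 normalized counts in the vehicle testes of M1 to M5, and 30.2, 23.5, 14.3, 10.5 and 18.5 in the GPI-treated testes. The highest GPI-treated testis was far below the lowest vehicle testis, and the mean fell to 2.75% of vehicle. This was a 36.3-fold decrease, with a log2 fold change of -5.18 ± 0.18 (SE) and adjusted p = 7.99e-10 by the quasi-likelihood test of edgeR with Benjamini-Hochberg adjustment. Raw counts of Flt1 in the GPI-treated libraries were 27, 29, 15, 10 and 17, so the level that was left rests on few counts per library.

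Flt4 (Entrez 14257) had 787, 726, 697, 863 and 846 normalized counts with vehicle and 94.0, 78.6, 92.2, 76.8 and 78.5 with GPI. The GPI-treated testes lay close together, at a mean of 10.7% of vehicle, and the log2 fold change was -3.22 ± 0.12 (SE), with adjusted p = 1.07e-09 by the quasi-likelihood test of edgeR with Benjamini-Hochberg adjustment. Kdr (Entrez 16542), the main signalling receptor of VEGF-A, had 1474, 1493, 1501, 1683 and 1388 normalized counts with vehicle. With GPI it had 366, 359, 222, 219 and 246, which was 18.7% of vehicle. Its log2 fold change was -2.44 ± 0.13 (SE), with adjusted p = 3.57e-08 by the same edgeR test with Benjamini-Hochberg adjustment. The log2 ratios within an embryo ran from -2.93 to -2.0 for Kdr, from -3.46 to -2.89 for Flt4 and from -5.96 to -4.62 for Flt1, so the ranges of Flt1 and Flt4 did not meet, and those of Kdr and Flt4 did. In M1, where Vegfa was higher with GPI, the log2 ratios were -2.0 for Kdr, -4.62 for Flt1 and -3.04 for Flt4.

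Both neuropilin genes fell, and in every embryo by less than each receptor. Nrp1 (Entrez 18186), a co-receptor for VEGF-A and semaphorins, had 2907, 2467, 2877, 3042 and 2525 normalized counts with vehicle and 1434, 1595, 1571, 1463 and 1588 with GPI. Nrp2 (Entrez 18187), a co-receptor tied more to VEGF-C, had 852, 858, 631, 717 and 744 with vehicle and 456, 396, 388, 282 and 340.0 with GPI. Neither gene had overlapping groups, and both were lower in 5 of 5 embryos. The log2 fold change of Nrp1 was -0.85 ± 0.08 (SE), with adjusted p = 5e-06 by the quasi-likelihood test of edgeR with Benjamini-Hochberg adjustment. That of Nrp2 was -1.04 ± 0.10 (SE), with adjusted p = 7.55e-06 by the same edgeR test and Benjamini-Hochberg adjustment. Counting ignored strand. The gene 4930487H11Rik overlaps Nrp2 on the other strand, and Mir1903 lies within Nrp1 on the same strand. The part of these 2 genes in the neuropilin counts was not tested.

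Endothelial cells carry these receptors, so other endothelial genes were set beside them. All 15 endothelial markers fell and none had overlapping groups, with a median log2 fold change of -2.94. Over all tested genes, 11.9% were called lower and 9.04% had every GPI-treated testis below every vehicle testis. Pecam1, an adhesion molecule of endothelial junctions, had a log2 fold change of -4.16 ± 0.15 (SE), and Cdh5, the vascular cadherin, had -3.63 ± 0.12. Emcn, a surface sialomucin, had -2.93 ± 0.17. The summed level of the list was 9088, 9577, 9041, 10170 and 9658 normalized counts with vehicle and 1155, 1405, 982, 727 and 895 with GPI, or 10.9% of vehicle. By mean normalized count, with no correction for length here or in the lists that follow, Cdh5 was the most abundant marker with vehicle and Erg with GPI. No marker of this list was at 0 in a library, and its part in the fall of the VEGF receptors was not tested.

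**Figure D2:**
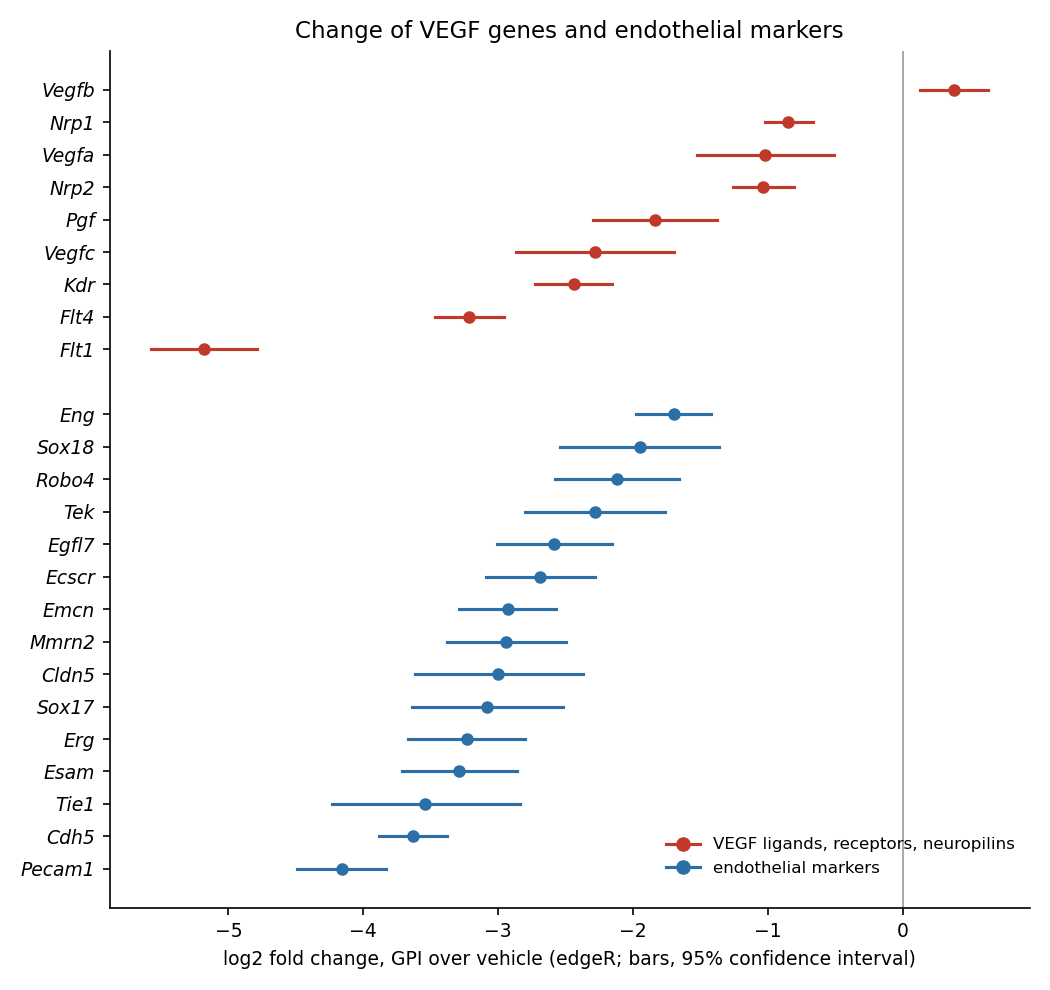
Log2 fold change of GPI over vehicle for the 9 VEGF genes (red) and 15 endothelial markers (blue), with 95% confidence intervals from edgeR. Flt1 at -5.18 lies below every endothelial marker, Flt4 at -3.22 and Kdr at -2.44 lie within their range of -4.16 to -1.70, and Nrp1, Nrp2, Vegfa and Vegfb lie above it.

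Each receptor was then compared with the median log2 ratio of the endothelial markers in the same embryo, which was -2.31, -2.37, -2.90, -3.20 and -2.90 in M1 to M5. The log2 ratio of Flt1 minus this median was -2.31, -2.31, -2.39, -2.75 and -2.14, with a mean difference of -2.38 ± 0.23 (SD, n = 5, exact sign-flip permutation p = 0.063, adjusted over 5 genes 0.07812). Kdr lay above the median in 5 of 5 embryos, with a mean difference of 0.29 ± 0.09 (SD, n = 5, exact permutation p = 0.063, adjusted 0.07812). Flt4 had differences of -0.73, -0.80, 0.01, -0.25 and -0.50, with a mean of -0.46 ± 0.34, which did not share a sign in all embryos (SD, n = 5, exact permutation p = 0.125, adjusted 0.125). The neuropilins lay above the endothelial median in 5 of 5 embryos, by 1.89 ± 0.38 for Nrp1 and 1.70 ± 0.38 for Nrp2 (SD, n = 5, exact permutation p = 0.063 and adjusted 0.07812 for both). These tests were two-sided, and 5 pairs cannot give a p below 0.063, so none could pass 0.05. The values depend on the reference: against Pecam1 and Cdh5 alone, the mean difference was -1.22 for Flt1, 1.45 for Kdr and 0.71 for Flt4, which turned the sign of Flt4.

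Levels of different genes were compared as normalized counts per kilobase of the longest transcript. In vehicle testes the order of mean levels was Vegfa at 1330.0, Nrp1 at 758, Kdr at 255, Vegfb at 160.0, Flt4 at 125, Nrp2 at 113, Flt1 at 102, Pgf at 97.8 and Vegfc at 49.2. From Vegfb to Pgf the library ranges of neighbours in this order overlapped, while that of Vegfb lay above those of Nrp2, Flt1 and Pgf. In GPI-treated testes the order of mean levels was Vegfa at 835, Nrp1 at 419.8, Vegfb at 208, Nrp2 at 55.4, Kdr at 47.7, Pgf at 27.8, Flt4 at 13.4, Vegfc at 10.4 and Flt1 at 2.82. Vegfa stood at 2185 in M1 and at 409 to 643 in the other embryos, and its mean without M1, a choice made after seeing the data, was 498. With GPI the library ranges of neighbours overlapped between Vegfa and Nrp1 and from Nrp2 to Vegfc, so the fifth place of Kdr is not separated from its neighbours. Flt1 stood in the seventh place with vehicle and last with GPI, where its range lay below those of the other 8 genes. With the union of all exons as the length, Nrp1 stood at 282 and Kdr at 167 with vehicle, and the ranges of Kdr and Vegfb then overlapped. With GPI, Vegfb at 166 then stood before Nrp1 at 156, with overlapping ranges, so levels across genes depend on the transcript model.

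**Figure D3:**
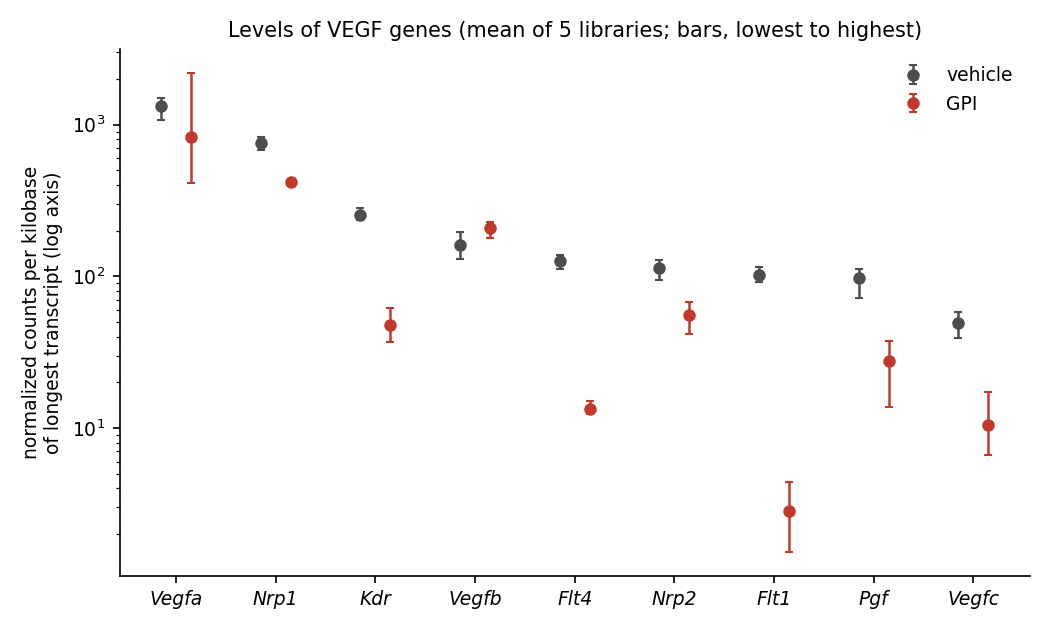
Mean normalized counts per kilobase of the longest transcript on a log axis, for vehicle (grey) and GPI-treated (red) testes; bars run from the lowest to the highest of 5 libraries. The bars of Vegfa and Vegfb overlap between the groups, and those of the other 7 genes do not.

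Ratios between these levels show how the balance of ligands and receptors differed. Flt1 over Kdr was 0.402 ± 0.0379 (SD, n = 5) with vehicle and 0.0577 ± 0.0112 with GPI, without overlap. Flt4 over Kdr was 0.494 ± 0.0529 with vehicle and 0.296 ± 0.0736 with GPI, also without overlap. Vegfa over Kdr was 5.28 ± 0.958 with vehicle and 16.2 ± 10.7 with GPI, where M1 had 35.4 and the other embryos 10.6 to 12. Relative to Flt1, Vegfa stood at 13.1 ± 2.33 with vehicle and 271 ± 132 with GPI, where M1 had 498 and the other embryos 185 to 268. Pgf over Flt1 was 0.959 ± 0.156 with vehicle and 10.2 ± 2.42 with GPI. In each of these ratios the 5 embryos moved in the same direction and the groups did not overlap. Nrp1 over Kdr was 2.98 ± 0.199 with vehicle and 9.29 ± 2.33 with GPI, and was higher with GPI in 5 of 5 embryos. With the union of exons as the length it was 1.69 with vehicle and 5.28 with GPI, and Vegfa over Flt1 was 20.7 and 427. Vegfc over Flt4 was 0.397 ± 0.0897 with vehicle and 0.774 ± 0.299 with GPI, with overlapping groups and 1 of 5 embryos lower.

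The genes with the most similar profiles were found among 11104 genes that averaged 50 or more counts over the libraries. Nearness was the root mean square difference of centred log2 values over 10 libraries. The difference between treatments was kept in these values, so nearness in part reflects a fold change of similar size. Kdr was nearest to Plau at 0.146, Fam43a at 0.164 and Clec14a at 0.169, followed by Pde4b and Rapgef5, where the median over all compared genes was 1.27. Clec14a encodes an endothelial lectin and Plau a secreted protease. Flt4 was nearest to Cd38 at 0.246, Igfbp3 at 0.249 and Prex2 at 0.271, followed by Esam and Fxyd5, with a median of 1.62 over all genes. The profile of Flt1 had less close neighbours, Ctla2a at 0.502, Gpihbp1 at 0.505, Gja5 at 0.525, Cd109 at 0.527 and Pecam1 at 0.542, with a median of 2.60. Gpihbp1 and Gja5 encode a capillary lipase anchor and an arterial connexin. The log2 fold changes of these 5 genes lay between -5.02 and -4.16.

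Vegfa was nearest to Slc2a1 at 0.161, Txnip at 0.174, Fam162a at 0.196, Pdk1 at 0.197 and Pfkfb3 at 0.197, against a median of 0.845 over all compared genes. Slc2a1 encodes a glucose transporter, and Pdk1 and Pfkfb3 encode regulators of glucose use. Their log2 fold changes ran from -1.17 to -0.77. Pgf was nearest to Fzd6 at 0.179 and Pde2a at 0.180, followed by Shank3, Lcp2 and Gfod1, against a median of 1.03. Nrp1 was nearest to Eml1, Nin, Mbnl3, Lims1 and Tenm4, at 0.0962 to 0.111, against a median of 0.494.

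Markers of other cell types also moved with GPI. Their counts stand beside 11.9% of all tested genes called lower and 11.1% called higher. Every GPI-treated testis lay below every vehicle testis in 9.04% of tested genes and above in 7.07%. All 6 pericyte markers fell without overlap, with a median log2 fold change of -2.74. Abcc9, the most abundant of them with vehicle, had -3.93 ± 0.10 (SE), and Kcnj8, its partner in a potassium channel, had -4.07 ± 0.16. Pdgfrb, the receptor that recruits pericytes and the most abundant of them with GPI, had -1.55 ± 0.09. The summed level of the pericyte list was 8602, 9210, 9319, 9134 and 8260 normalized counts with vehicle and 1500, 1466, 1434, 1194 and 1342 with GPI. Of 3 lymphatic endothelial markers, Prox1 and Pdpn rose, by 1.01 ± 0.22 and 0.42 ± 0.10, while Lyve1 had -1.88 ± 0.65 and was not called. All 15 endothelial markers fell in the same libraries, and the cells that carried Prox1 and Pdpn were not determined. That list summed to 585, 808, 584, 577 and 539 with vehicle and 885, 847, 793, 811 and 809.6 with GPI, most of it from Pdpn. No pericyte or lymphatic marker was at 0 in a library.

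Fetal Leydig markers rose in 4 of 4 tested genes, while Insl3 did not pass the filter on low counts. Cyp17a1, an androgen synthesis enzyme, had a log2 fold change of 3.90 ± 0.29 (SE), Cyp11a1, the most abundant with GPI, had 2.90 ± 0.27 and Hsd3b1, the most abundant with vehicle, had 1.75 ± 0.20. Their sum was 1280, 2700, 3980, 1991 and 5303 normalized counts with vehicle and 9634, 10120, 15750, 18090 and 12930 with GPI. Sertoli markers rose in 5 of 7 genes, with Sox8 at 1.43 ± 0.16, Ptgds at 0.88 ± 0.18 and Sox9 at 0.59 ± 0.09. All 7 had overlapping groups, and the median log2 ratio of the list was -0.14 in M1. Amh at 0.08 ± 0.22 and Cst9 at -0.19 ± 0.15, named after their values were seen, were not called. The Sertoli sum was 2928, 4499, 3285, 4286 and 4522 with vehicle and 3161, 6037, 6045, 7872 and 5882 with GPI, with Aard the most abundant gene. Of 5 interstitial markers, 2 fell, among them Tcf21 with a log2 fold change of -0.30 ± 0.08, and Pdgfra, the most abundant, rose by 0.33 ± 0.07. The first gene of that list, Nr2f2, had -0.18 ± 0.07 and was not called. The interstitial sum was 14690, 15740, 16560, 14070 and 16140 with vehicle and 15620, 16700, 15120, 14250 and 17190 with GPI.

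Germ cell markers fell in 5 of 5 tested genes, with Dppa3 at a log2 fold change of -5.20 ± 0.36 (SE), Sall4 at -4.89 ± 0.43, Dazl at -4.62 ± 0.34 and Ddx4 at -2.72 ± 0.45. Their sum was 961, 2044, 1243, 1688 and 645 normalized counts with vehicle and 125, 101, 27.6, 33.7 and 97.0 with GPI. Dazl was the most abundant with vehicle and Ddx4 with GPI, and Pou5f1 and Mael were at 0 in at least 1 library. Macrophage markers fell in 6 of 7 genes, with Csf1r at -2.22 ± 0.21, C1qa at -3.78 ± 0.56 and C1qb at -1.91 ± 0.28. Other markers, named after their values were seen, fell less, with Mrc1 at -0.90 ± 0.19 and Cd68 at -0.76 ± 0.19. Adgre1 had -0.26 ± 0.25 and was not called, and Cd68 and Adgre1 had overlapping groups. The macrophage sum was 809, 548, 659, 593 and 511 with vehicle and 372, 329, 289, 190.4 and 205 with GPI, Cd68 was the most abundant and C1qa was at 0 in 1 library. Erythroid markers fell in 5 of 6 genes, with Slc4a1 at -4.80 ± 0.42, Hba-a1 at -1.59 ± 0.33 and Hbb-y, the most abundant, at -0.98 ± 0.23. The erythroid sum was 1496, 1882, 3224, 2827 and 2513 with vehicle and 1343, 770.2, 728, 799.6 and 1858 with GPI. Of 4 mesonephric genes, 3 did not pass the filter on low counts, among them Pax2 and Cdh16, which were at 0 in some libraries. Pax8, the 1 tested gene, had -0.28 ± 0.27 and was not called. Its list summed to 691, 112, 307, 133 and 58.7 with vehicle and 181, 272, 114, 110.5 and 98.1 with GPI. The part of these cell types in the VEGF gene changes was not tested.

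**Figure D4:**
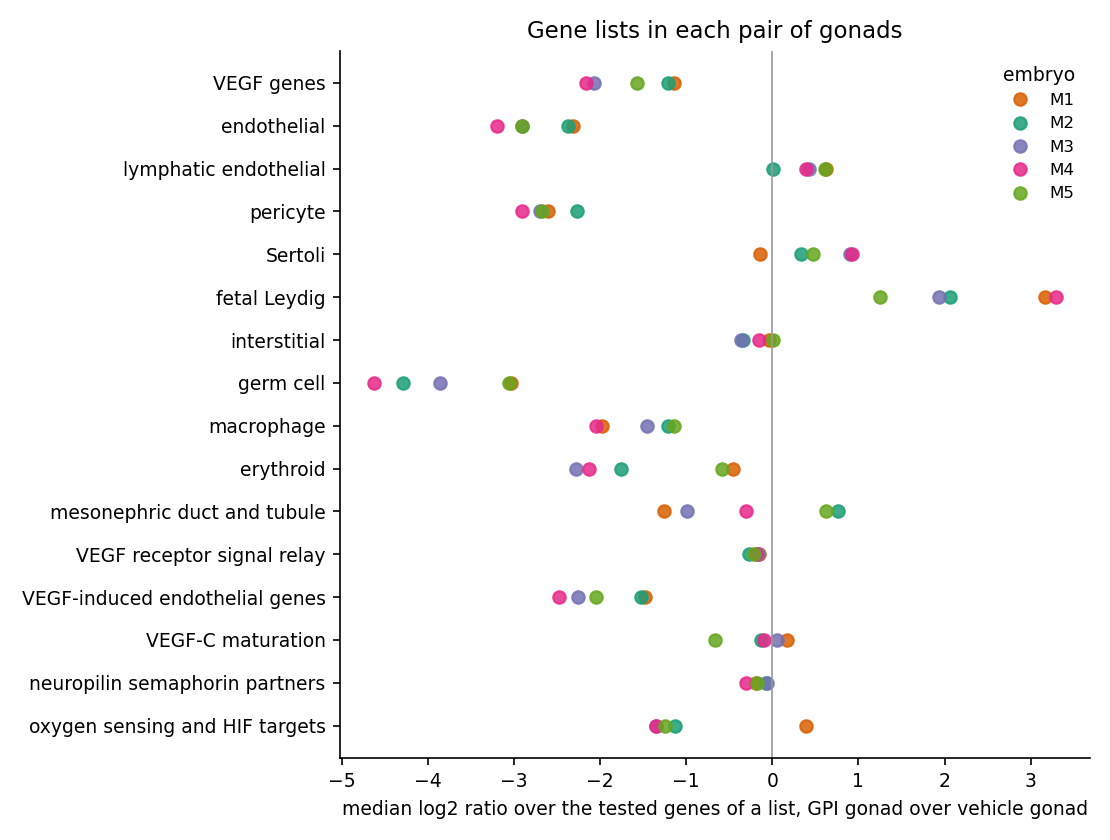
Median log2 ratio of the GPI-treated over the vehicle testis for each gene list, over its tested genes, with 1 point for each embryo M1 to M5. The VEGF, endothelial, pericyte, germ cell, macrophage, erythroid, relay, VEGF-induced and semaphorin partner lists lie below 0 in every embryo, the fetal Leydig and lymphatic lists lie above 0 in every embryo, and the oxygen sensing list is at 0.39 in M1 and between -1.35 and -1.13 in the others.

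Relay genes carry the signal of the receptors inside the cell. Of 30 relay genes, 9 fell, 1 rose and 20 were not called, beside 11.9% lower and 11.1% higher over all tested genes. The median log2 fold change of the list was -0.15, beside 0.02 over all tested genes. Ptprb, a phosphatase of endothelial junctions, fell from 763, 625, 676, 736 and 610.3 normalized counts to 58.2, 84.3, 34.2, 29.5 and 41.4, a log2 fold change of -3.81 ± 0.20 (SE). Nos3, the endothelial nitric oxide synthase, had -3.15 ± 0.27, and Prkcb, a protein kinase C, had -1.35 ± 0.12. All 9 genes that fell had groups without overlap. Plcg1, the phospholipase that docks on the receptor made from Kdr, had a log2 fold change of -0.20 ± 0.10 and was not called (adjusted p = 0.185 by the quasi-likelihood test of edgeR with Benjamini-Hochberg adjustment). The 1 relay gene that rose, named after its values were seen, was Hspb1, a small heat shock protein, at 0.49 ± 0.13. The relay list summed to 82.9% of vehicle with GPI, and its most abundant gene was Pik3r1.

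Of 10 genes known to be induced by VEGF in endothelial cells, 7 fell and 1 rose, with a median log2 fold change of -2.05. Dll4, the Notch ligand of tip cells, had 245, 241, 251, 319 and 306 normalized counts with vehicle and 52.6, 56.8, 23.8, 31.6 and 20.7 with GPI. The groups of Dll4 did not overlap, and its log2 fold change was -2.91 ± 0.25 (SE). Esm1, a secreted tip cell proteoglycan, had -2.86 ± 0.21, Cxcr4, a chemokine receptor, had -2.67 ± 0.15, and Ets1, a transcription factor, had -1.43 ± 0.10. Rcan1, an inhibitor of calcineurin named after its values were seen, rose by 0.76 ± 0.13 in 5 of 5 embryos. The list summed to 38.3% of vehicle. The endothelial markers fell in the same libraries, to 10.9% of vehicle, and their part in this fall was not tested.

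The list of VEGF-C maturation held Ccbe1, Adamts3 and the ligand gene Vegfd, and none of them was called. Ccbe1, a cofactor of VEGF-C processing, had a log2 fold change of -0.20 (95% CI -0.44 to 0.03), Adamts3, the protease, had -0.09 (95% CI -0.43 to 0.26), and Vegfd is given above. Of 12 semaphorins and plexins that act with neuropilins, 4 fell and 3 rose, with a median log2 fold change of -0.29. Over all tested genes, 11.9% were called lower and 11.1% higher. Every GPI-treated testis lay below every vehicle testis in 4 of the 12 and above in 2, beside 9.04% and 7.07% of tested genes. Plxnd1, a plexin of endothelial cells, had 2840.0, 2888, 2653, 3181 and 2807 normalized counts with vehicle and 1181, 1057, 979, 777.5 and 1031 with GPI. Its groups did not overlap, and its log2 fold change was -1.52 ± 0.10 (SE). Plxna1 rose by 0.70 ± 0.07 and Sema3c by 0.90 ± 0.11, both without overlap, and Sema3a by 0.51 ± 0.11 with overlap. The list summed to 97.4% of vehicle, and its most abundant gene was Plxnd1 with vehicle and Plxna4 with GPI.

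Vegfa is a known target of HIF, and the oxygen sensing list was described beside it. Of its 12 genes, 8 fell and 1 rose, with a median log2 fold change of -1.0, beside 11.9% lower and 11.1% higher over all tested genes. Only 1 of the 12, Epas1, had groups without overlap. Adm, a vasodilator peptide and a HIF target, had 803, 1453, 718, 751 and 819.8 normalized counts with vehicle and 909, 304, 79.9, 150.5 and 268 with GPI. The GPI-treated testis of M1 lay within the range of the vehicle testes, and the other GPI-treated testes lay below it. The log2 fold change of Adm was -1.79 ± 0.33 (SE), and -2.31 without M1. Hif1a, which encodes the oxygen-regulated subunit, rose by 0.53 ± 0.09 in 5 of 5 embryos. Epas1, the related subunit of endothelial and other cells, fell by 1.25 ± 0.08 on the log2 scale in 5 of 5 embryos, M1 included. Glucose transporter Slc2a1, the nearest gene to Vegfa, had 2786, 1981, 1703, 1790.0 and 2084 normalized counts with vehicle and 3832, 947, 753, 644 and 859 with GPI. In M1 it was higher with GPI and in M2 to M5 lower, the same pattern as Vegfa.

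The median log2 ratio of the oxygen sensing list was 0.39 in M1 and -1.13, -1.35, -1.35 and -1.24 in M2 to M5. Leaving out M1 gave 9 genes lower and a median log2 fold change of -1.27, and leaving out the pairing by embryo gave 2 genes lower and -0.54. DESeq2 gave 6 genes lower, the test against a minimum fold of 1.5 gave 5, and leaving out M2, M3, M4 or M5 gave 6 to 7. The receptor genes differed from this pattern: Kdr, Flt1 and Flt4 fell in M1 as in the other embryos. The GPI-treated library of M1 held 11025409 counts, the fewest of the GPI-treated libraries and within the range of the vehicle libraries, and the part of depth in this pattern was not tested.

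**Figure D5:**
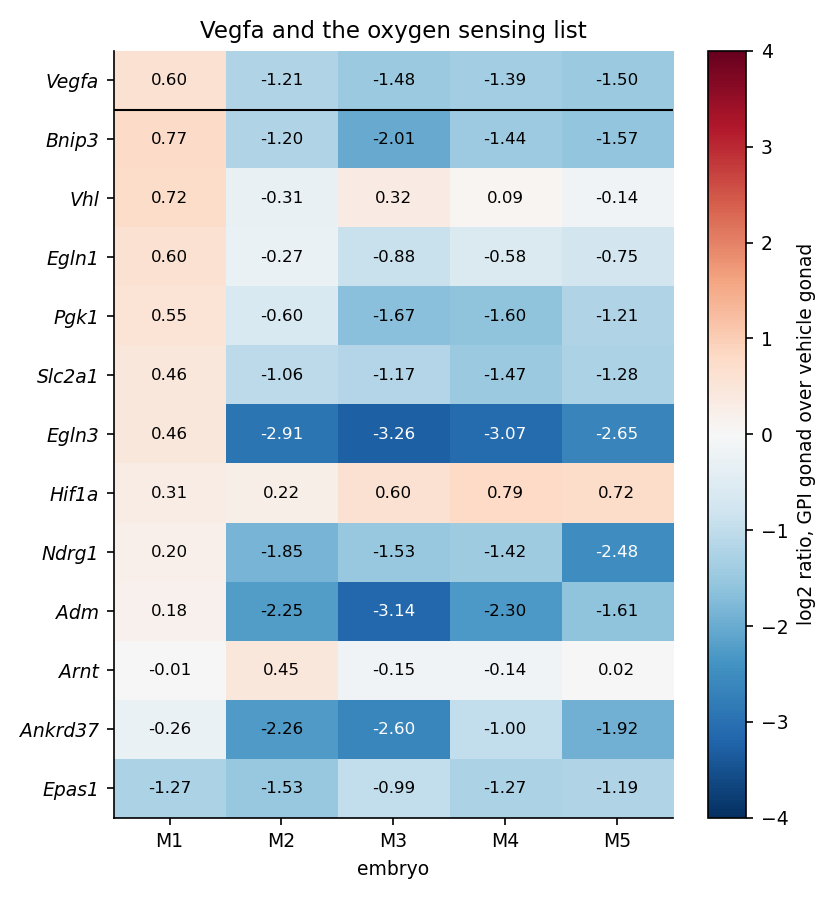
Log2 ratio of the GPI-treated over the vehicle testis in each embryo M1 to M5 for Vegfa (top row) and the 12 genes of the oxygen sensing list, with red for higher and blue for lower with GPI. Vegfa has 0.60 in M1 and -1.21 to -1.50 in the others, and Egln3 has 0.46 in M1 and -2.65 to -3.26 in the others.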

How the data were processed

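RNA of 10 cultured testes was measured, 5 with vehicle and 5 with GPI. Raw counts of read pairs per gene were deposited; the authors had aligned reads to mm10 using STAR 2.5 and counted with featureCounts (Subread 1.5.0-p1), ignoring strand, and these versions come from the submitters' processing notes. Amplified libraries had no molecular identifiers, so errors come from the spread between embryos. No 2 libraries of a group were duplicates, with chi-square over degrees of freedom of 6.42 to 27.81.

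Genes were filtered with filterByExpr (minimum count 10, minimum total 15), which left 13941 of 24470. Calls came from edgeR 4.0.16 in R 4.3.3 (TMM scaling, quasi-likelihood test, embryo and treatment in the design, Benjamini-Hochberg adjustment over all tested genes, FDR 0.05), checked on simulated data. A standard error is the size of the log2 fold change over the root of its F statistic. Log2 ratios within an embryo used a prior count of 2. The labels name the same embryo for both gonads of a pair; deviations from the group means correlated at -0.04 to 0.16 within an embryo (mean 0.06) and -0.015 between embryos.

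Lengths came from GENCODE M21 by Entrez identifier. Alternatives were DESeq2 1.42.0, limma-voom (limma 3.58.1), DESeq2 size factors, total counts, no filter on counts, a filter of 10 counts in each library, a minimum fold of 1.5 (glmTreat), no pairing, other references and lengths, and leaving out each embryo. Named genes are the 9 VEGF genes and Vegfd, the first gene of each list and its 3 tested genes with the smallest p, and the 5 genes nearest to each of 6 VEGF genes. The VEGF genes and all lists were chosen with earlier results of these data known. Some genes of the marker lists are not reported here by name.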

Additional observations from a re-analysis of the deposited data

Results flagged for a closer look

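In 27 sets of 5 values of the VEGF genes, 2 held a value far from the rest, and chance gives about 1 in 20. Both belong to Vegfa in M1 and share its GPI-treated testis. The normalized count of Vegfa in the GPI-treated testis of M1 was 7539, and its gap to the next library was 0.869 of the range of the GPI-treated testes, above the critical value of 0.71 for 5 samples. The log2 ratio of Vegfa in M1 was 0.60, with a gap of 0.863 of the range. The oxygen sensing list had a median log2 ratio of 0.39 in this embryo, though Epas1 had -1.27, Ankrd37 -0.26 and Arnt -0.01. The part of this library in the result is given by the values without M1 in the report.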

How the results depend on the processing

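Flt1, Flt4, Kdr, Vegfc, Pgf, Nrp1 and Nrp2 kept their direction and their call in all 12 alternatives each. Their log2 fold changes ranged from -5.34 to -5.00 for Flt1, -3.31 to -3.15 for Flt4 and -2.57 to -2.32 for Kdr. The 15 endothelial markers were called lower in every alternative except with a filter of 10 counts in each library, which left 12 and called all of them. Against a minimum fold of 1.5, 878 genes were called in place of 3198, among them 7 VEGF genes lower in place of 8. Leaving out 1 embryo gave 2311 to 3080 called genes. The count of VEGF genes called higher was 0 with DESeq2, with total counts only and against the minimum fold of 1.5, and 0 to 1 with an embryo left out; the cause was not tested. Its 1 gene, Vegfb, kept its direction throughout, with log2 fold changes of 0.33 to 0.44. With Pecam1 and Cdh5 alone as the reference, Flt4 relative to the endothelial markers was 0.71 in place of -0.46.

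Without the replicate block that pairs the gonads of an embryo, 3108 genes were called and 7 VEGF genes were lower, with Vegfa at -0.67; it changed no other call among the 9 VEGF genes. Ratios of vehicle levels between genes moved with the union of exons as length, by the most for Nrp1 over Kdr, from 2.98 to 1.69, and Vegfa over Flt1, from 13.1 to 20.7. Low counts limit Flt1 with GPI, at 10 to 29 raw counts per library.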
